A study of Mus musculus with 35 samples.

Results

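Transcripts recovered by m6A immunoprecipitation were compared with input RNA in the hippocampus of control mice. The comparison used the m6A library and the input library of each of 4 PBS mice, which is 8 of the 35 libraries in the series. These were the PBS mice whose libraries both held at least 100000 counts. All animals were young adult male C57BL/6JOlaHsd mice that carried a cannula over the amygdala. PBS mice received vehicle through it, whereas kainate mice received kainic acid, which triggers status epilepticus, followed by lorazepam. Mouse 1 was taken 24 hours after PBS and mice 2, 3 and 4 were taken at 2 weeks. The 24 hour time point of the PBS mice thus rests on a single animal. Kainate mice compared below were taken at 24 hours or at 2 weeks. The controls had therefore undergone surgery and an intracerebral injection, and no uninjected mouse was analysed here.

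N6-methyladenosine (m6A) is a methyl mark on adenosines inside messenger RNA and the commonest of its kind. A nuclear writer complex with METTL3 and METTL14 at its core, assisted by adaptors such as WTAP and ZC3H13, deposits it mostly in a short consensus around GGAC. FTO and ALKBH5 can remove it, and reader proteins of the YTH and IGF2BP families bind marked transcripts and alter their splicing, stability and translation. In m6A sequencing an antibody retrieves marked RNA, and a transcript that carries more of the mark than average is expected to take a larger share of the immunoprecipitate than of the input.

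The m6A libraries held 13548376, 13887127, 16378045 and 6579414 counts in mice 1 to 4, and the inputs held 12694434, 4502537, 3507103 and 5720858 counts. Levels below are in CPM, read counts scaled to the size of each library after trimmed mean (TMM) correction of that size. The m6A libraries are labelled as polyA RNA, came from a pulldown of 5 µg of RNA and were built from 10 ng, whereas the inputs are labelled as total RNA and were built from 50 ng. The mark, polyA selection and library amount therefore cannot be told apart in any difference between the paired libraries. The column names of these mice carry a prefix of 5 for 1 library of each pair and none for the other. The prefixed library was read as m6A, since kainate mice with a column named as input carry a prefix only on the other library, and a turned reading would turn every sign below. Prox1, a marker of dentate granule cells, measured 42.6 to 52.0 CPM in the inputs. Slc17a7 (the vesicular glutamate transporter of excitatory neurons) measured 187 to 274 CPM, so both neuronal markers were present in every animal.

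Most transcripts took nearly the same share of both libraries. The median log2 fold change of m6A over input was -0.02 over 15109 genes tested (quartiles -0.29 and 0.25), and 95.5% of the genes lay within 1 log2 unit of 0. Genes were called enriched or depleted at a Benjamini-Hochberg adjusted P under 0.05 and a log2 fold change beyond 1 in edgeR's quasi-likelihood test, with the mouse as a block. Under this rule 34 genes (0.225%) were enriched and 95 (0.629%) were depleted in the m6A libraries. All 34 enriched genes were higher and all 95 depleted genes were lower in m6A in each of the 4 mice. The median log2 fold change was 1.31 among the enriched genes and -2.29 among the depleted genes.

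**Figure D1:**
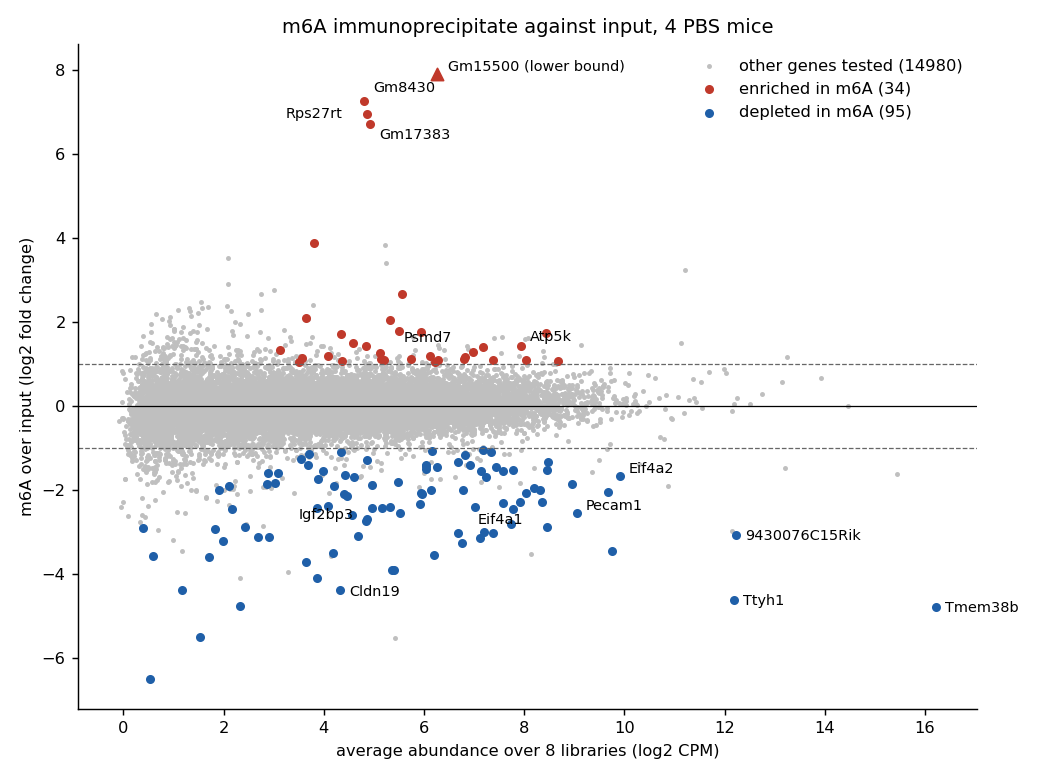
Each point is a gene, with its average abundance over the 8 libraries (log2 CPM) on the horizontal axis and its fitted log2 fold change of m6A over input on the vertical axis, where the dashed lines mark 1 log2 unit. The 34 enriched genes (red) and 95 depleted genes (blue) stand out from a cloud centred near 0. The triangle gives Gm15500 at a lower bound for its mean over mice, because it had 0 counts in every input.

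The number of calls rested heavily on single animals. Without mouse 3, edgeR called 0 genes in either direction, although 1728 genes kept an unadjusted P under 0.05 (864 in each direction), and on these 3 mice DESeq2 called 77 enriched and 106 depleted genes and limma voom called 5 and 12. All 129 called genes kept their direction without mouse 3, which follows from their having it in all 4 mice. Their median log2 fold changes without mouse 3 were 1.27 and -2.23. Without mouse 1 edgeR called 23 enriched and 34 depleted genes, without mouse 2 it called 9 and 70, and without mouse 4 it called 153 and 192. The m6A library of mouse 4 stood apart from the others. Its log2 CPM correlated at 0.89 to 0.91 with the other 3 m6A libraries, which correlated at 0.97 to 0.98 among themselves. Across 7731 well expressed genes the log2 ratio of m6A to input had an SD of 0.48, 0.50, 0.59 and 0.87 in mice 1 to 4. Spearman correlations of these ratios between mice ranged from 0.24 for mice 1 and 4 to 0.72 for mice 2 and 3, across genes that are not independent replicates.

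The deepest loss in counts fell on a few extremely abundant input species. Tmem38b encodes TRIC-B, a potassium channel of the endoplasmic reticulum, and took 3.49% of all input counts in mouse 1 and up to 20.9% in the other inputs (mouse 3). Tmem38b measured 35061, 115648, 249646 and 189630 CPM in the inputs against 5565, 4606, 9656 and 1209 CPM in the m6A libraries. The lowest input thus lay above the highest m6A library, and the fitted change was 27.5-fold lower in m6A (log2 fold change -4.78, SE 0.76, edgeR adjusted P = 0.0383). Ttyh1, a membrane protein of astrocytes and neural stem cells, behaved alike, with 2436, 8001, 13358 and 12199 CPM in the inputs and 324, 380, 437 and 162 CPM in m6A (log2 fold change -4.62, SE 0.54, adjusted P = 0.0135). The RIKEN gene 9430076C15Rik, named here after its values were seen, measured 2437 to 13294 CPM in the inputs and 315 to 2850 CPM in m6A (-3.08, SE 0.39, adjusted P = 0.0169). In all 3 genes the input of mouse 1 was the lowest. Without mouse 1 the adjusted P was 0.05004 for Tmem38b, 0.0295 for Ttyh1 and 0.0711 for 9430076C15Rik, and without mouse 2 it was 0.205, 0.0572 and 0.0211.

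Tmem38b holds an annotated 5S ribosomal RNA gene, n-R5s185 (a structured RNA without a polyA tail), on its own strand on chromosome 4 in the GENCODE vM39 annotation of GRCm39. The deposited counts are per gene, so the share of Tmem38b counts that came from these 119 bases was not measured here. Among 62 tested genes with an annotated ribosomal RNA gene inside on the same strand, Tmem38b was the single one called (1.61%, against 0.629% of all genes depleted). The gene 9430076C15Rik, matched to Creb5, holds an annotated small nuclear RNA gene, Gm25818, on its own strand. Of 222 tested genes with a small nuclear RNA gene inside, 3 (1.35%, against 0.629% of all genes) were depleted, 9430076C15Rik, Rnf225 and C5ar2. None was enriched, and their median log2 fold change was -0.02. The source of the lost reads was not tested here either.

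Depleted genes of ordinary abundance, named only if lower in m6A in every mouse, differed between animals in the size of the change. Npffr1, a receptor for RFamide neuropeptides, measured 398, 178, 363 and 259 CPM in the inputs and 37.5, 44.1, 37.0 and 25.4 CPM in m6A (log2 fold change -3.02, SE 0.26, adjusted P = 0.00556). The tight junction protein gene Cldn19 was nearly lost from the pulldown, with 21.5 to 49.8 CPM in the inputs and 1.11 to 2.80 CPM in m6A (-4.39, SE 0.36, adjusted P = 0.00543). Both genes had input and m6A ranges that did not overlap. Within mice the log2 ratio ran from -3.40 to -2.01 for Npffr1 and from -5.21 to -3.16 for Cldn19.

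Other depleted genes chosen by the naming rule had varied functions. Pecam1, an adhesion molecule of endothelial cells, measured 860, 659, 1164 and 924 CPM in the inputs and 162, 214, 187 and 75.6 CPM in m6A (-2.56, SE 0.30, adjusted P = 0.0135). Pak2, a kinase downstream of RAC and CDC42, fell from 391 to 594 CPM in the inputs to 115 to 144 CPM in m6A (-2.001, SE 0.17, adjusted P = 0.00556). Lrrc8a, the core subunit of the volume-regulated anion channel, fell from 113 to 216 CPM in the inputs to 37.6 to 48.0 CPM in m6A (-2.002, SE 0.19, adjusted P = 0.0082). Neither gene's ranges overlapped. Plekhg2, a guanine nucleotide exchange factor for small GTPases, was at 16.6 to 45.2 CPM in the inputs and 1.80 to 5.10 CPM in m6A (-3.50, SE 0.36, adjusted P = 0.00871). Lipe, the hormone-sensitive lipase, was at 45.5 to 131 CPM against 7.72 to 20 CPM (-2.54, SE 0.28, adjusted P = 0.0113). Nagk, which phosphorylates N-acetylglucosamine, was at 71.4 to 171 CPM against 21.6 to 31.3 CPM (-2.02, SE 0.19, adjusted P = 0.00784). Brpf1, a scaffold of histone acetyltransferases, was at 96.8 to 127 CPM against 37.7 to 43.4 CPM (-1.47, SE 0.13, adjusted P = 0.00573), and C5ar2, a receptor for complement C5a, was at 31.1 to 49.8 CPM against 7.00 to 11.2 CPM (-2.14, SE 0.15, adjusted P = 0.00371). Prr15, Fhl3 and Rnf225 were also among the 12 genes named for the largest depletion, with log2 fold changes of -3.02, -2.68 and -2.89. Without mouse 4 the adjusted P of these last genes rose to 0.136, 0.0814 and 0.0676, without mouse 1 Pecam1, Lipe, Prr15 and Fhl3 were at 0.0634, 0.0519, 0.0584 and 0.0701, and without mouse 2 Rnf225 was at 0.121.

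**Figure D2:**
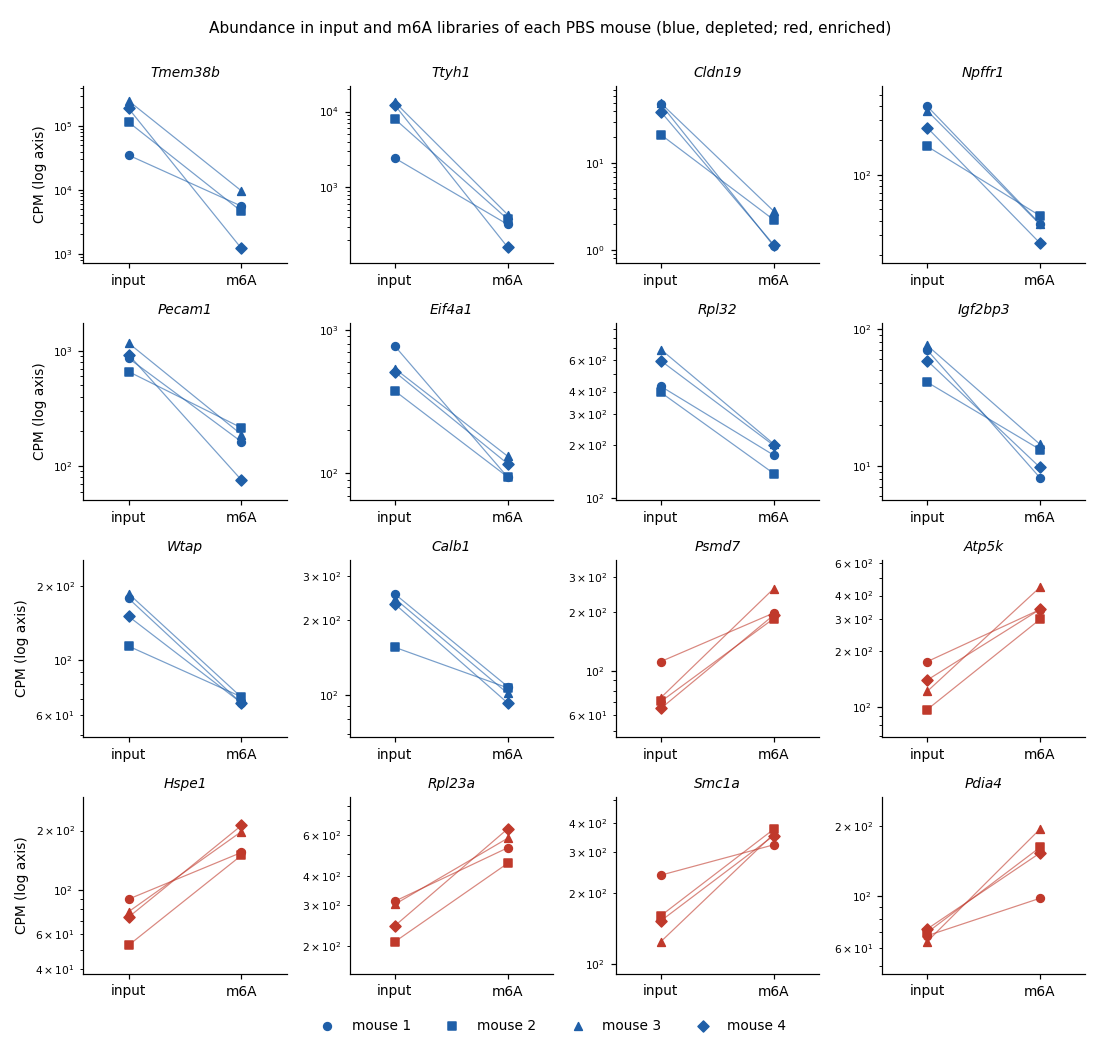
Abundance (CPM, log axes) of 16 called genes in the input and m6A library of each PBS mouse, with a line joining the paired libraries of an animal and a symbol for each mouse. Blue genes fell and red genes rose in all 4 mice, from a 27.5-fold loss of Tmem38b to gains of 2.08-fold for Rpl23a and 2.67-fold for Atp5k.

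Genes that carry small nucleolar RNAs in their introns recurred among the depleted transcripts. Small nucleolar RNAs (snoRNAs) are short guide RNAs without a polyA tail that are processed from the introns of host genes, many of which encode parts of the translation machinery. Of 256 tested genes with a snoRNA annotated inside on the same strand, 10 (3.91%) were depleted and 2 (0.781%) were enriched. Of 14025 genes with no snoRNA, spliceosomal RNA or ribosomal RNA inside, 73 (0.52%) were depleted and 28 (0.2%) were enriched. The median log2 fold change of the snoRNA hosts was -0.03, against -0.02 over all genes tested, and it ran from -0.09 to -0.01 within the 4 mice, where the medians of all genes ran from -0.03 to -0.00367. Because counts are per gene, it was not tested whether the lost reads came from exons or from the small RNAs.

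Of the 10 depleted hosts, 4 encode translation factors or ribosomal proteins. The 29 ribosomal protein genes among the 256 hosts held 2 of the depleted genes (6.9%, against 3.91% of all hosts). How many hosts encode translation factors was not counted. Eif4a1, the RNA helicase of the cap-binding complex and host of 3 annotated snoRNA genes, measured 772, 376, 538 and 510 CPM in the inputs and 94.2, 94.4, 132 and 117 CPM in m6A. Every m6A value lay below every input (log2 fold change -2.29, SE 0.20, adjusted P = 0.00556). Its paralog Eif4a2 measured 916, 1329, 2013 and 1667 CPM in the inputs and 517, 453, 477 and 353 CPM in m6A (-1.68, SE 0.24, adjusted P = 0.028, and 0.137 without mouse 2). The ribosomal protein gene Rpl32, host of Snora7a, was at 428, 395, 690 and 596 CPM against 175, 138, 202 and 199 CPM (-1.54, SE 0.13, adjusted P = 0.00543). Rps3, host of Snord15a and Snord15b, was at 1316, 426, 913 and 536 CPM against 184, 167, 284 and 174 CPM (-1.87, SE 0.25, adjusted P = 0.0194). Neither ribosomal protein gene overlapped between libraries. Chosen after their values were seen, Rack1 (a ribosome-bound scaffold, host of Snord95 and Snord96a) changed by -1.33 (SE 0.19, adjusted P = 0.0247), Ddx39b (an mRNA export helicase) by -1.09 (SE 0.19, adjusted P = 0.0497) and the condensin subunit gene Ncapd2, host of Scarna10, by -1.82 (SE 0.21, adjusted P = 0.0135). The other depleted hosts were Ccdc36, Gm42715 and 1810032O08Rik. The enriched hosts were Srcap and Rpl23a. Gm42715 and Srcap have overlapping gene models and both list Snora30 inside, so their opposite calls are not independent. Ddx39b lost its call without mouse 1 (adjusted P = 0.0903) and without mouse 2 (0.26), Rack1 was at 0.0882 and 0.0637, and Ncapd2 was at 0.0645 without mouse 2.

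The ribosomal protein genes as a class did not share this loss. Of 81 tested, 2 were depleted (Rpl32 and Rps3) and 1 was enriched, beside 0.629% and 0.225% of all genes. Their median log2 fold change was -0.02. The 29 with a snoRNA inside had a median of -0.35 and held all 3 calls, and the 52 without had a median of 0.11 and none. The enriched member, Rpl23a, is itself a host of Snord42a, Snord42b and Snord4a. Rpl23a rose from 311, 208, 302 and 243 CPM in the inputs to 530, 454, 583 and 640 CPM in m6A (log2 fold change 1.06, SE 0.14, adjusted P = 0.0192). Hosting a snoRNA thus went with calls in both directions. Without mouse 4 the log2 fold change of Rpl23a was 0.95, under the limit of 1, and without mouse 2 its adjusted P was 0.143. The class median was 0.39 in mouse 1, 0.04 in mouse 2, -0.23 in mouse 3 and -0.41 in mouse 4, so the animals did not share a direction.

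Enriched genes with a distinct sequence rose by modest and similar amounts. Psmd7, a subunit of the proteasome lid, measured 112, 70.4, 73.7 and 65.0 CPM in the inputs and 197, 185.1, 262 and 193 CPM in m6A (log2 fold change 1.397, SE 0.18, adjusted P = 0.0179). Atp5k, a small subunit of mitochondrial ATP synthase, measured 176, 97.2, 122 and 140 CPM in the inputs and 336, 298, 443 and 337 CPM in m6A (1.42, SE 0.17, adjusted P = 0.0144). The mitochondrial cochaperonin gene Hspe1 measured 90.0, 52.6, 77.7 and 73.0 CPM in the inputs and 155, 150, 198 and 212 CPM in m6A (1.29, SE 0.16, adjusted P = 0.015). The lowest m6A value exceeded the highest input in all 3 genes. Snrpd1, a core protein of spliceosomal particles, rose further, from 16.4 to 43.2 CPM in the inputs to 79.2 to 131 CPM in m6A (1.75, SE 0.27, adjusted P = 0.0352). The clone-named transcript RP24-84J11.1 was at 12.6 to 29.8 CPM against 59.2 to 78.6 CPM (1.79, SE 0.18, adjusted P = 0.0082), and it kept its call without mouse 1, 2 or 4. Without mouse 2 the adjusted P was 0.0997 for Psmd7, 0.0883 for Atp5k, 0.0963 for Hspe1 and 0.188 for Snrpd1.

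A further 9 enriched genes changed by 1.08 to 1.26 on the log2 scale. H2afj, a replication-independent histone H2A gene, changed by 1.26 (SE 0.19, adjusted P = 0.0343) and the linker histone gene Hist1h1c by 1.08 (SE 0.14, adjusted P = 0.018). Smc1a, a ring subunit of cohesin, was at 240, 161, 124 and 153 CPM in the inputs and 323, 377, 360 and 354 CPM in m6A (1.10, SE 0.19, adjusted P = 0.0459). Utp3, of the small-subunit ribosome processome, changed by 1.09 (SE 0.17, adjusted P = 0.0346), the zinc finger gene Zfp830 by 1.19 (SE 0.16, adjusted P = 0.0243) and Pnrc2, a cofactor of mRNA decapping, by 1.18 (SE 0.18, adjusted P = 0.0326). Pdia4, a disulfide isomerase of the endoplasmic reticulum, was at 63.8 to 72.2 CPM in the inputs and 97.8 to 194 CPM in m6A (1.10, SE 0.18, adjusted P = 0.04). Smim15, a small membrane protein gene, changed by 1.11 (SE 0.13, adjusted P = 0.0136). Srcap, which loads the histone variant H2A.Z, changed by 1.12 (SE 0.18, adjusted P = 0.0383) but overlaps the depleted gene model Gm42715 (-2.06, SE 0.30, adjusted P = 0.0296), so the division of reads between them is uncertain. Leaving out mouse 2 raised the adjusted P of every gene in these last sentences, from 0.103 for Smim15 to 0.263 for Smc1a. Leaving out mouse 1 left Smc1a (0.0357) and Pdia4 (0.047) as calls among them, and leaving out mouse 4 brought Pnrc2 and Srcap to 0.97 and 0.98, under the limit of 1.

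Near-identical copies of coding genes headed the enriched list. Processed pseudogenes are intronless copies made by reverse transcription of an mRNA, and their reads can be assigned to the parent gene or to the copy depending on the counting. All 9 enriched pseudogenes shared more than 20% of their 31-base words with a coding gene (median 85.4%), against 6 of 15 depleted pseudogenes (median 18.7%) and 399 of 690 tested pseudogenes (57.8%, median 31.6%). These genes lie outside the naming rule and are described after their values were seen. Gm15500, a copy of the ribosomal protein gene Rpl5, had 0 counts in all 4 inputs and 4632, 2962, 795 and 306 counts in the m6A libraries (321, 194, 44.5 and 43.7 CPM). Against a floor of 3 counts in each input library, which covers counting error only, its mean m6A level was at least 238-fold the mean floor. This bound holds for the means, and it is lower within mice 3 and 4, whose m6A values were far below the mean. Rpl5 itself was at 1060 to 3199 CPM in the inputs and 506 to 969 CPM in m6A (log2 fold change -1.38, SE 0.30, adjusted P = 0.0818). Summing copy and parent gave a log2 ratio of -1.08 ± 0.69 (SD, n = 4), so the pair together was lower, not higher, in m6A.

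The Eif4a1 pair shows both directions within what is nearly a single sequence. Eif4a-ps4, a processed copy on chromosome 1, measured 13.6, 12.2, 21.1 and 14 CPM in the inputs and 67.1, 43.8, 57.1 and 84.5 CPM in m6A (log2 fold change 2.05, SE 0.21, adjusted P = 0.00836), whereas Eif4a1 fell by 2.29 on the same scale. Without mouse 1 the adjusted P of Eif4a-ps4 was 0.0519. The transcripts differ at 1 of 1218 aligned bases. The copy took 1.73% to 3.78% of the reads of the pair in the inputs and 30.2% to 42.0% in m6A, ranges that did not overlap. Both copies that bear most on the counting are printed over 30 bases, the Rpl5 pair where a stretch is identical and the Eif4a1 pair around its differing base, which is in capitals. Positions count from the start of the GENCODE vM39 transcript.
Gm15500 (chromosome 7, bases 448 to 477): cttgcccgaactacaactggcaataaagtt
Rpl5 (chromosome 5, bases 591 to 620): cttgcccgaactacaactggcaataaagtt
Eif4a-ps4 (chromosome 1, bases 520 to 549): aaatacatcaagatAttcgtactggatgaa
Eif4a1 (chromosome 11, bases 537 to 566): aaatacatcaagatGttcgtactggatgaa
Summed over copy and parent, the Eif4a1 pair still fell in m6A, by a mean log2 ratio of -1.68 ± 0.41 (SD, n = 4).

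Summing with the gene it resembles removed most of the change of some copies and not of others. Gm8430 and its parent Rps27a, a ubiquitin fusion gene, share 93.0% of words, and the copy changed by 7.26 (SE 0.40, adjusted P = 0.00297) while the sum changed by -0.24 ± 0.81 (SD, n = 4). Gm17383, which resembles the tubulin gene Tuba1b, changed by 6.70 (SE 0.47, adjusted P = 0.00371) and the sum by 0.22 ± 0.40. The retrogene Rps27rt changed by 6.94 (SE 0.86, adjusted P = 0.0164), with m6A values of 6.30, 4.77 and 4.48 CPM in mice 1 to 3 and 215 CPM in mouse 4, by 4.29 without mouse 4, and with an adjusted P of 0.0609 without mouse 2. Its sum with Rps27 changed by 1.66 ± 1.42 (SD, n = 4). Rpl14-ps1 changed by 1.10 and its sum with Rpl14 by 1.29 ± 0.72, and Gm13092 changed by 1.41 and its sum with Snrpf by 0.96 ± 0.34. Among depleted copies, Rps2-ps10 changed by -3.26 and its sum with Rps2 by -1.95 ± 0.45, and 4930529C04Rik changed by -3.09 and its sum by -1.20 ± 0.49, although the coding gene Zbed4 was at 0.47. Over the 10 enriched copies with a parent the median log2 fold change was 3.27 for the copies, -0.07 for the parents and 0.30 for the sums. Over 6 depleted copies these medians were -3.19, -0.32 and -0.95. Calls on these genes are therefore uncertain as statements about either transcript.

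**Figure D3:**
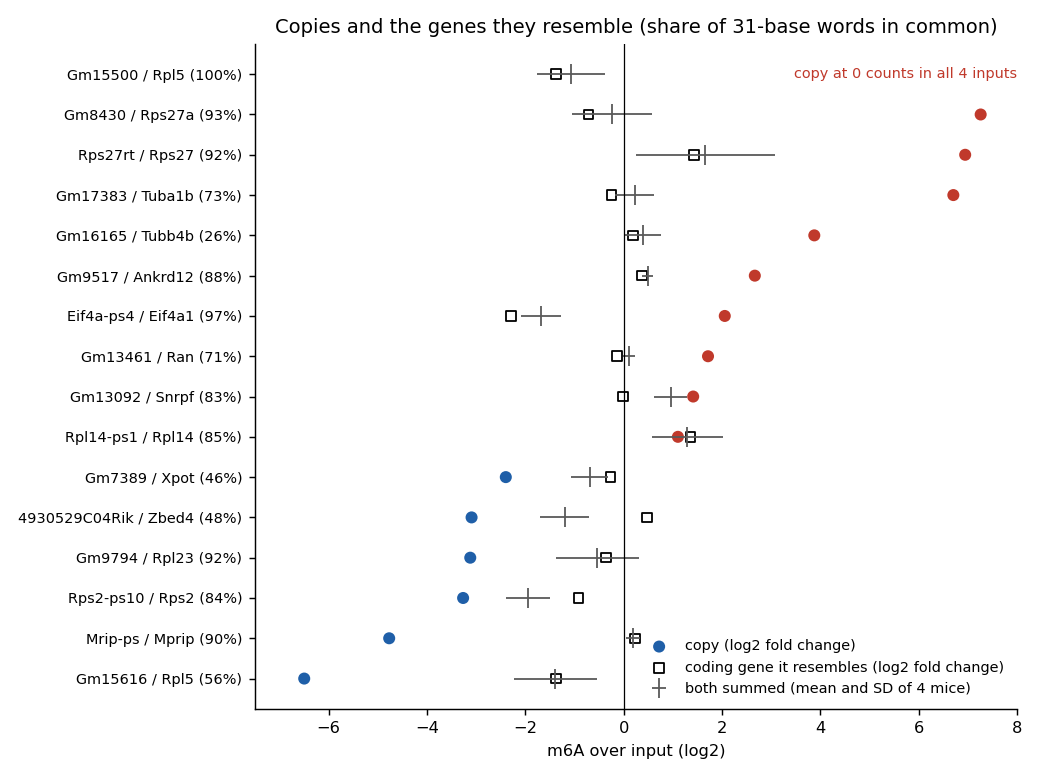
Log2 ratio of m6A to input for 16 called copies (filled circles), the coding genes they resemble (open squares) and the summed reads of both (ticks, mean with SD of 4 mice), with the share of 31-base words in common. The sums run from -1.95 for Rps2-ps10 to 1.66 for Rps27rt, and Gm15500 itself is not drawn because its inputs held 0 counts.

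Of 25 genes of the m6A pathway itself that were tested, 3 were depleted (12%, against 0.629% of all genes) and none was enriched. Of 8 writer genes tested, Wtap was depleted, from 178, 114, 186 and 151 CPM in the inputs to 67.0, 71.1, 70.8 and 67.2 CPM in m6A, with no overlap (log2 fold change -1.17, SE 0.15, adjusted P = 0.0194). The catalytic subunit gene Mettl3 was at 14.4 to 28.6 CPM in the inputs and 17 to 25.3 CPM in m6A (0.08, SE 0.15, adjusted P = 0.803), and Mettl14 was at 32.7 to 37.6 CPM against 16.7 to 45.5 CPM (0.06, SE 0.25, adjusted P = 0.919). Zc3h13 was at 0.61 (SE 0.20, adjusted P = 0.163). Neither eraser gene passed the test, with Fto at -0.38 (SE 0.13, adjusted P = 0.185) and Alkbh5 at -0.71 (SE 0.14, adjusted P = 0.0677), although both were lower in m6A in all 4 mice.

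Of 15 reader genes, 2 were depleted (13.3%, against 0.629% of all genes), and both encode IGF2BP proteins. Igf2bp3 was at 70.4, 40.9, 76.0 and 58.8 CPM in the inputs and 8.17, 13.1, 14.3 and 9.72 CPM in m6A (log2 fold change -2.44, SE 0.24, adjusted P = 0.0082). Igf2bp2 was at 35.8 to 62.2 CPM against 1.43 to 11.4 CPM (-2.74, SE 0.42, adjusted P = 0.0338). Neither gene's ranges overlapped. The YTH readers did not pass, with Ythdf1 at 0.31, Ythdf2 at -0.13, Ythdf3 at 0.02 and Ythdc1 at 0.77 (adjusted P = 0.431, 0.739, 0.958 and 0.142). Median log2 fold changes were 0.08 for the writers and -0.01 for the readers, beside -0.02 over all genes. Without mouse 1 the adjusted P was 0.0778 for Wtap and 0.0954 for Igf2bp2, and Igf2bp3 kept its call (0.0416).

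Functional classes had few calls, beside 0.225% of all genes enriched and 0.629% depleted, and medians near that of all genes. Of 36 gene lists with a member tested, 25 had a median above that of all genes, and the medians of the lists with over 10 members tested ran from -0.27 to 0.16. Replication-dependent histone genes, whose mRNAs end in a stem-loop without a polyA tail, had the highest of these medians, 0.16, with 23 of 43 genes above 0 and Hist1h1c as the single call. Glycolysis genes had the lowest, -0.27, and their median was below 0 in each animal (-0.42, -0.15, -0.08 and -0.48 in mice 1 to 4) and at -0.22 over the kainate mice. Of these 16 genes 2 lay above 0, with 0 calls (3 genes down at an unadjusted P under 0.05, and 0 calls by DESeq2 or limma voom). Zinc finger Zfp genes had a median of 0.11, with 219 of 344 above 0 and 1 call (Zfp830), and genes with a single coding exon had a median of 0.14 and no call.

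Neuronal classes had few calls, but some had a smaller share of genes above 0 than the 47.7% of all genes. This share was 26.7% for sodium, calcium and HCN channels, 28.6% for semaphorins, plexins and ephrins and 33.3% for GABA receptors. It was 58.3% for glutamate receptors, 53.9% for potassium channels and 61.8% for postsynaptic scaffolds and kinases. Sodium, calcium and HCN channel genes had a median of -0.13 (8 of 30 above 0) and semaphorins, plexins and ephrins a median of -0.11 (14 of 49), each with 0 calls. At an unadjusted P under 0.05 the channels had 1 gene up and 5 down and the guidance genes 0 up and 5 down, and DESeq2 and limma voom called 0 in both. The medians were 0.07 for 24 glutamate receptor genes, -0.13 for 15 GABA receptor genes, 0.03 for 65 potassium channel genes and 0.02 for 34 postsynaptic scaffold and kinase genes, again with 0 calls. Single calls in short lists, beside 0.629% of all genes tested that were depleted, say little about a class. Of 35 immediate early genes, 1 was depleted. This was Sik1, a kinase of the CREB pathway, at 14.4 to 20.8 CPM in the inputs and 5.47 to 7.85 CPM in m6A (log2 fold change -1.27, SE 0.17, adjusted P = 0.0234, and 0.0885 and 0.0876 without mouse 1 and mouse 2). Of 15 excitatory neuron markers, 1 was depleted, Calb1, the calcium buffer of granule cells, at 254, 155, 243 and 231 CPM in the inputs and 108, 107, 102 and 92.9 CPM in m6A (-1.09, SE 0.16, adjusted P = 0.0294, and 0.0934 without mouse 1). Oligodendrocyte, astrocyte, microglial, inhibitory neuron and choroid plexus lists had 0 calls, and Pecam1 was the single call among 14 endothelial markers.

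**Figure D4:**
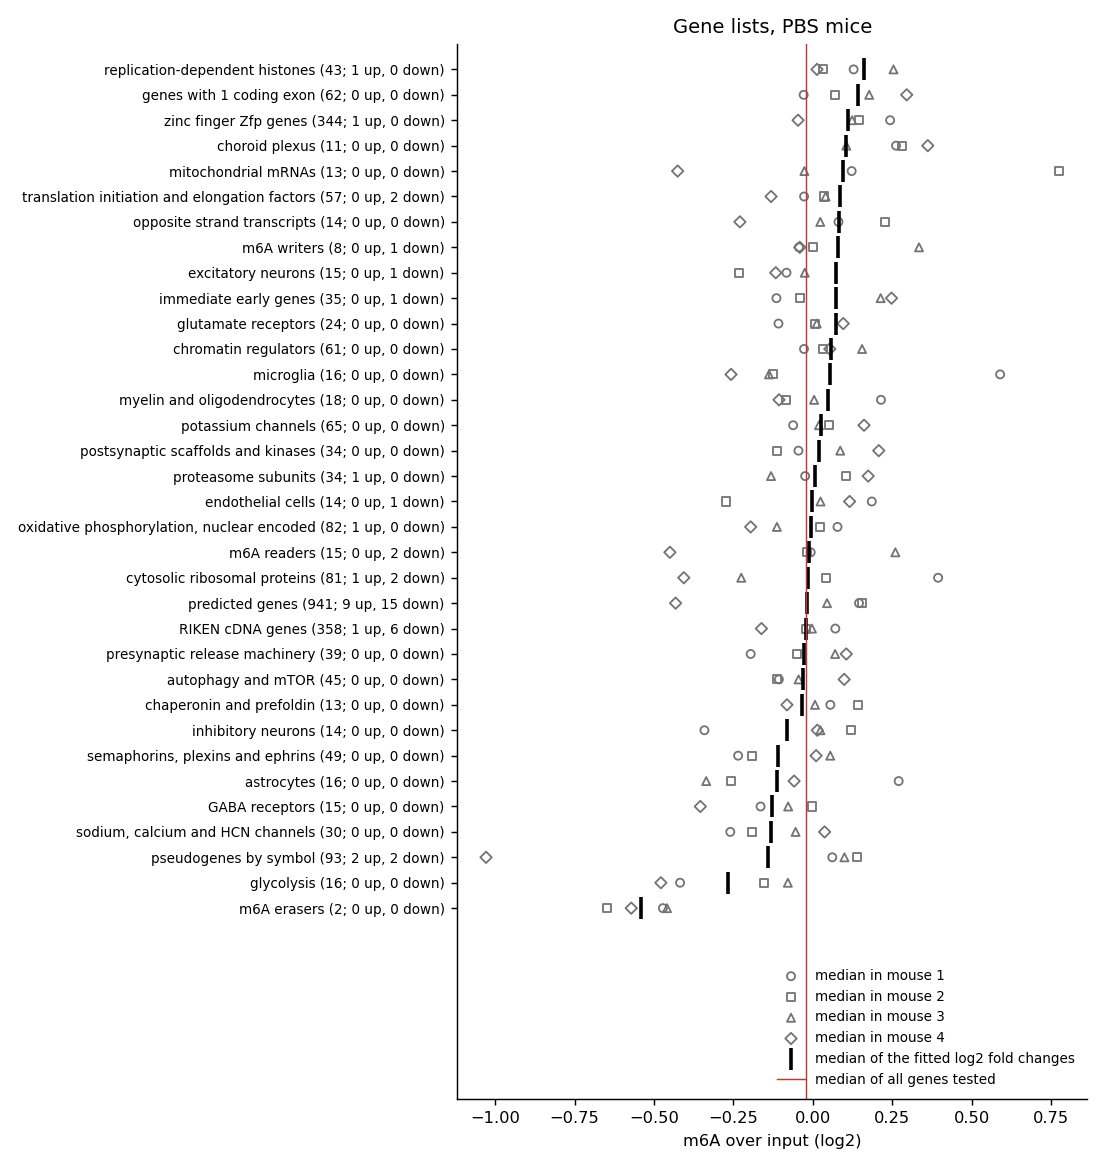
Median log2 ratio of m6A to input for each gene list with at least 5 genes tested, and for the 2 eraser genes, with the number of genes tested and called in brackets. Black ticks are medians of the fitted log2 fold changes, open symbols are medians within each PBS mouse and the red line is the median of all genes, -0.02, around which the lists cluster.

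The 13 mitochondrial mRNAs, which lie outside the reach of the nuclear writer complex, had 0 calls and a median of 0.10. An unadjusted P under 0.05 was reached by 2 of them upwards and 1 downwards, and DESeq2 and limma voom each called 1. The animals differed widely, with medians of 0.12, 0.77, -0.03 and -0.43 in mice 1 to 4. The smallest P was that of mt-Atp6, a subunit of ATP synthase, which rose in all 4 mice, from 3540 to 10693 CPM in the inputs to 9719 to 16287 CPM in m6A, but missed the threshold (log2 fold change 1.17, SE 0.22, adjusted P = 0.0642).

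Sequence and structure were only weakly related to recovery in the pulldown. Across 7516 well expressed genes matched to GENCODE transcripts, the Spearman correlation of the log2 fold change with the density of the 5-base motif GGACT in the sense transcript was -0.03. It was -0.08 with the number of exons, -0.06 with transcript length and -0.13 with GC content. The correlation with GC content was -0.29 in mice 1 and 2, 0.05 in mouse 3 and 0.01 in mouse 4, so it was carried by 2 animals, and it was -0.28 over the kainate mice. These are descriptions across genes that share libraries. Calls in both directions were most frequent among genes with 1 exon, of which 12 of 957 were enriched (1.25%) and 15 depleted (1.57%). Pseudogenes, whose calls are uncertain as described above, made up 587 of these 957 genes, with 8 enriched (1.36%) and 13 depleted (2.21%). Among the other 370 genes with 1 exon 4 were enriched (1.08%), Rps27rt among them, and 2 were depleted (0.541%). Among genes with 11 to 20 exons 1 of 3875 was enriched (0.0258%) and 28 were depleted (0.723%).

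The consensus motif was present in genes called in either direction. The first GGACT in the transcript is printed for the enriched histone gene Hist1h1c and for the depleted writer gene Wtap, with the motif in capitals. A match is not evidence of methylation at that site, which these gene counts do not resolve.
Hist1h1c (chromosome 13, bases 765 to 794): caaggttgcaagGGACTcgatcccggcagc
Wtap (chromosome 17, bases 132 to 161): gcgggcttccgcGGACTgtctccgtgcggc
Among the fifth of matched genes with the densest GGACT, 9 of 2910 were enriched and 15 were depleted, and among the fifth with the sparsest 10 of 2910 were enriched and 16 were depleted.

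The same genes were followed in 9 kainate mice with both libraries deep, which share no animal with the PBS mice. Kainate mice 67, 8 and 98 were taken at 24 hours and mice 21, 42, 5, 6, 7 and 9 at 2 weeks. The fits pooled these times, with the mouse as a block and no separate effect of time. In the kainate mice edgeR called 189 of 14700 genes enriched (1.29%) and 82 depleted (0.558%). Of 33 PBS-enriched genes tested there, 33 had the same sign and 17 the same call, with a median log2 fold change of 1.13 against 1.29 in PBS mice. Of 91 PBS-depleted genes tested there, 89 had the same sign and 37 the same call, with a median of -0.93 against -2.10. None was called in the opposite direction. Because the genes were chosen for a large change in PBS mice, the smaller medians in kainate mice do not measure a treatment effect. In the 5 kainate mice whose input columns are named as inputs, the median log2 ratio of the PBS-depleted genes was -1.23 in mouse 67, -1.49 in mouse 8, -1.47 in mouse 7 and -1.09 in mouse 9, but 0.89 in mouse 6. It ranged from -1.70 to -0.33 in the other 4 kainate mice. Mouse 6 was thus the single pair in which these genes lay on the other side of 0, and without it 103 genes were depleted over the kainate mice. Over all 14527 shared genes 10855 had the same sign.

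Several of the strongest changes recurred in the kainate animals. Tmem38b was at -3.66 (SE 0.84, adjusted P = 0.0151), Ttyh1 at -4.09 (SE 0.55, adjusted P = 0.00141) and Eif4a2 at -1.55 (SE 0.15, adjusted P = 4.96e-05), each lower in m6A in 9 of 9 mice. Hspe1 was at 1.504 (SE 0.11, adjusted P = 7.67e-06) and Atp5k at 1.63 (SE 0.18, adjusted P = 0.000129), each higher in 9 of 9. Npffr1 (-0.86, adjusted P = 0.218), Prr15 (-0.43, adjusted P = 0.576) and Wtap (-0.29, adjusted P = 0.26) were not called in kainate mice. A direct test of the difference between the treatments, over 16157 genes, placed 1 gene higher in PBS mice (0.00619%) and 0 lower (0%) at an adjusted P under 0.05, with 594 genes at an unadjusted P under 0.05, and DESeq2 called 2 in all. None of the genes called in PBS mice passed this test, and the largest departure by P among them, Plekhg2, was -2.41 (SE 0.49, adjusted P = 0.974). The single gene was Gm38356, a predicted gene with 1472 counts in the m6A library of PBS mouse 4 and 0 in the other 7 PBS libraries, beside 1136, 16 and 30 counts in the inputs of kainate mice 8, 6 and 9. The call was lost without PBS mouse 4, without kainate mouse 8 and without kainate mouse 9.

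**Figure D5:**
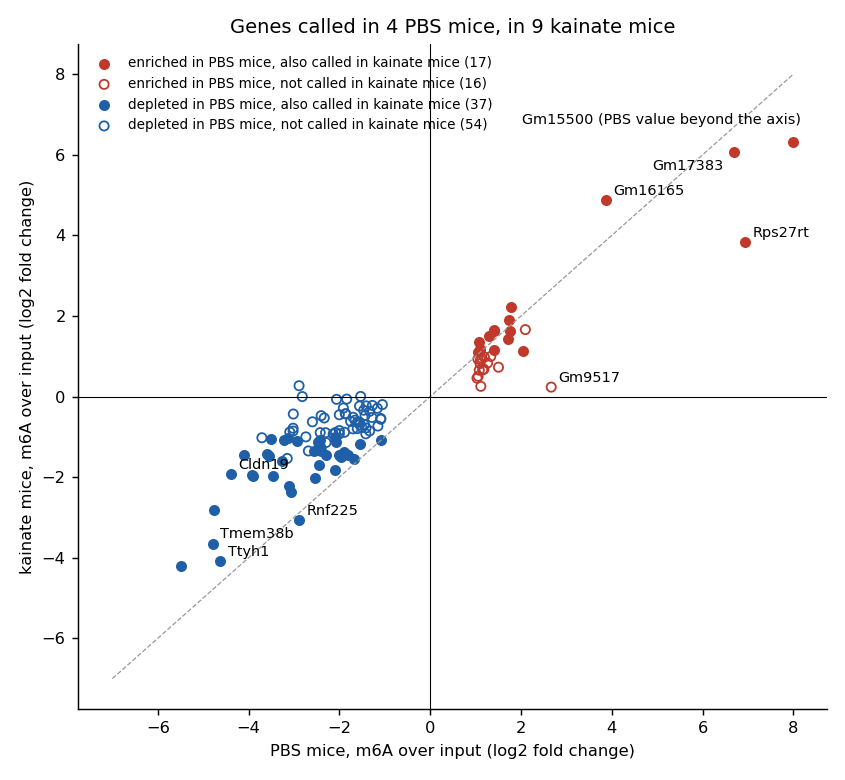
Log2 fold change of m6A over input in 9 kainate mice (vertical) against that in 4 PBS mice (horizontal) for the genes called in PBS mice, with filled circles for genes also called in kainate mice and a dashed line of equal values. All 33 enriched genes and 89 of 91 depleted genes keep their sign, and most depleted genes lie closer to 0 in the kainate mice. The genes were chosen for a large change in PBS mice, so this gap does not measure a treatment effect.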

How the data were processed

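The authors deposited tables of raw read counts per gene and lane, built on mm10 per the labels. The aligner, the counting tool and its strand setting were not given in the sources used here. Counts of the 4 lanes of each library were summed, and 140 lane columns were used. The remaining 8 columns named no sample of the series. Paired libraries of PBS mice 1, 2, 3 and 4 were tested with edgeR 4.0.16 (TMM, filterByExpr by assay, robust quasi-likelihood F test, design of mouse plus assay) in R 4.3.3, with Benjamini-Hochberg adjustment over all genes tested. SE was the absolute log2 fold change over the square root of F. CPM were TMM scaled, and per-mouse ratios used a prior count of 2. The labels name the same animal for both libraries of a pair. Deviations from assay means correlated at 0.389, 0.122, 0.196 and 0.0146 within mice 1 to 4. The mice are separate animals.

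Genes were matched by symbol or RefSeq synonym to GENCODE vM39 (GRCm39), which gave 14550 of 15109 (96.3%). This build differs from that of the counts, so no coordinates were carried over. Sequences, exon counts and small RNA genes came from this annotation. Pseudogene copies were compared with coding transcripts by shared 31-base words.

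Genes were named by a rule. These were, in each direction, the 12 called genes with the largest change and the 10 with the smallest P, with an average log2 CPM of at least 4, the same direction in all 4 mice and no predicted, RIKEN or pseudogene symbol. Added to these were the 3 members of each list with the smallest P, all m6A machinery and mitochondrial mRNAs, and the 5 genes with the smallest P for the difference between PBS and kainate mice. Not every gene chosen this way is reported here. The members, gene lists and comparisons were chosen with earlier results of these data known. Lists of mitochondrial rRNAs and tRNAs, snoRNAs, spliceosomal RNAs and microRNA genes had 0 genes tested. The test was checked on simulated counts. Alternatives included DESeq2 1.42.0, limma 3.58.1 voom, other scalings, filters and samples, and each mouse left out.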

Additional observations from a re-analysis of the deposited data

Results flagged for a closer look

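Some values of a single mouse stood apart from those of the other 3 by a gap that took up nearly all of the range. This held for 8 of 90 sets of 4 mice, 3 of them for mouse 4, and chance alone flags about 1 in 20 such sets. The log2 ratio of m6A to input of Pnrc2 was 1.82 in mouse 4 against 0.90 to 1.02 in the others. That of Mettl14 was -0.98 in mouse 4 against 0.27 to 0.47, and the median over genes with a pseudogene symbol was -1.03 in mouse 4 against 0.06 to 0.14. Mouse 2 stood apart for Npffr1, at -2.01 against -3.40 to -3.29, and for Calb1, at -0.54 against -1.32 to -1.23. Mouse 1 stood apart for Eif4a1, at -3.03 against -2.12 to -1.99, and for the median of microglial markers, at 0.59 against -0.26 to -0.13. Mouse 3 stood apart for the median of the m6A writers, at 0.33 against -0.04 to 0.00.

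The difference of m6A over input between PBS and kainate mice passed the test for 1 gene, Gm38356, with a fitted log2 value of 21.66 (edgeR adjusted P = 6.4e-04). Its counts were 1472 in the m6A library of PBS mouse 4 and 1136, 16 and 30 in the inputs of kainate mice 8, 6 and 9, with 0 in the other libraries, so the fitted value depends on the prior count and is no measured fold.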

How the results depend on the processing

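Alternatives were compared with the main edgeR result of 34 enriched and 95 depleted genes in PBS mice. DESeq2 called 124 and 171, which included 34 and 91 of the main calls. Scaling by library size alone called 178 and 104, and thinning every library to the smallest total called 65 and 127. Testing every gene with 1 count called 146 and 149. Adding the shallow PBS mice 71 and 73 called 169 and 169, and all PBS libraries without pairing called 240 and 174. A test against a log2 fold change of 1 (glmTreat) called 5 and 17, an adjusted P under 0.01 called 8 and 24, and no fold limit called 57 and 109. Dropping the block for mouse, which ends the pairing of libraries, called 45 and 130, of which 27 and 92 were main calls. Leaving out each mouse in turn gave 0 to 153 enriched and 0 to 192 depleted genes, lowest without mouse 3 and highest without mouse 4. The 51 called genes named in the text kept their direction in every setting that tested them. They had this direction in all 4 mice, so refits of the same libraries could hardly turn it. Of these genes, 30, 27, 0 and 45 kept their call without mouse 1, 2, 3 and 4, with edgeR adjusted P from 0.0716 to 0.319 without mouse 3. Upper quartile scaling, limma voom, a mean of 10 counts in both assays, removal of mitochondrial and ribosomal RNA genes and, chosen after seeing the data, a newer quasi-likelihood fit and removal of genes over 1% of counts left each count within 1.5 times. For kainate mice the main counts of 189 and 82 became 462 and 50 with library size scaling, 343 and 203 without the filter, 102 and 47 with thinning and 110 and 41 without the block, and ranged from 151 to 228 and from 40 to 103 without single mice, the latter lowest without mouse 9 and 44 without mouse 7. The gene that differed between treatments became 2 with DESeq2, 167 without the filter, and 0 with thinning, without the block, with mice 71 and 73 added and without PBS mouse 4 or kainate mouse 8 or 9 (range 0 to 1 without single mice). In all PBS libraries without pairing, the Spearman correlation was 0.324 with GC content, against -0.13, and 0.0917 with GGACT density, against -0.03. Shallow inputs limit these added mice. The causes of these shifts were not tested. Of the list medians under these alternatives, 58 moved by more than the SD between mice and 589 did not.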
